A study of Mus musculus with 357 samples.

Results

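Gfi1 and Gfi1b, 2 closely related zinc finger genes that encode transcriptional repressors, were followed through 357 single hematopoietic stem cells (HSCs) of mouse bone marrow. They are 2 of the 96 gene assays read in every cell and were taken by name. Both were measured by reverse transcription and quantitative PCR, and each cell was scored as having a product of Gfi1, of Gfi1b, of both or of neither. The cells carried the genotype Col1a1-tetO-H2B-mCherry, a tetO-controlled transgene whose product, a red fluorescent histone, is diluted as a cell divides. The sources used here do not give the driver of the transgene, the age of the mice or the number of animals. All cells had been sorted as Lin-Sca1+c-kit+CD48-CD150+. They fell into cells taken 5 weeks after labelling (91 on plate 1 and 83 on plate 2) and cells taken 2 weeks after labelling (90 on plate 1 and 93 on plate 2). All cells of a chase time counted as 1 sample, since no animal is named, and no test was made between the times. Each plate held 1 chase time, so plate and chase time cannot be told apart.

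Gfi1 and Gfi1b share an amino-terminal SNAG domain, which recruits the histone demethylase LSD1 with CoREST and histone deacetylases, and a block of zinc fingers that reads DNA sites with the core AATC. In blood formation Gfi1 is known for its part in granulocytes, lymphoid cells and stem cell quiescence, and Gfi1b for its part in erythroid cells, megakaryocytes and platelets. In mice both are expressed in HSCs, and each is known to repress its own gene and that of its paralog, so which of them a single stem cell contains is a question of its own.

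In the RefSeq annotation of GRCm38.p6, Gfi1 lies on the minus strand of chromosome 5 from 107716655 to 107725805, and Gfi1b on the minus strand of chromosome 2 from 28609450 to 28621982. The windows around their annotated starts are shown because this is where the paralogs are known to act on each other. They run from 250 bases before the start to 50 bases after it, 5′ to 3′ on the minus strand, so their last bases lie in the first exon. The core AATC and the letters GATA, the core read by GATA factors, were searched on both strands (AATC or GATT, GATA or TATC) and stand in capitals.
Gfi1b, chr2:28621933-28622232: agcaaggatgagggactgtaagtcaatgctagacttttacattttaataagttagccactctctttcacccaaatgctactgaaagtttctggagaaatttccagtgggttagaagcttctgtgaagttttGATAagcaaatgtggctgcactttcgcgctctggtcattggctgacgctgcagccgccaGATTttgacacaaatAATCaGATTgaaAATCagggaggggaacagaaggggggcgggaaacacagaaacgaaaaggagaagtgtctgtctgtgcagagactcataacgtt
Gfi1, chr5:107725756-107726055: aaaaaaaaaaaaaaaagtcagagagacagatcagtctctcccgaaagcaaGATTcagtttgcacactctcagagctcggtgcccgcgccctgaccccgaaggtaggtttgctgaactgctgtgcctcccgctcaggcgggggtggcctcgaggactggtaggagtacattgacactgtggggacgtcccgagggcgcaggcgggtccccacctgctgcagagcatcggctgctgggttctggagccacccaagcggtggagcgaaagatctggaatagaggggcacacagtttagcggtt
The Gfi1b window held 4 matches to AATC, of which 3 lay close together, and 1 match to GATA; the motifs do not overlap each other there. At least 4 AATC matches occurred in 10.1% of the 32851 RefSeq promoter windows of this length, and at least 1 GATA match in 57.9%. The Gfi1 window held 1 AATC match, which 73.1% of windows have, and 0 GATA matches. A further annotated start of Gfi1 (window chr5:107724294-107724593) had 0 matches to either. These are matches of letters, and binding was not measured.

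Each reaction gave a threshold cycle (Ct), which is lower the more template a cell supplied, by about 1 cycle per doubling. Products at Ct 25 or earlier counted as detected. Cells at 5 weeks had 58.8 ± 5.71 of the 96 assays detected, and cells at 2 weeks 54.6 ± 5.36 (SD over cells). The mean Ct of 14 reference assays was 12.96 ± 0.65 at 5 weeks and 13.4 ± 0.53 at 2 weeks. These were the assays detected in at least 95% of the cells of every plate. Several belong to gene lists examined below: Nfe2 and Zfpm1 (erythroid and megakaryocyte), Gata2, Ldb1 and Lmo2 (SCL complex), Meis1 (repressed) and Trp53 (cell cycle). Kit is a sort gene, and the others were Gapdh, Actb, Hlf, Etv6, CDK4 and Ccnd2. Levels and values given the reference Ct thus rest in part on genes under study. Relative to the reference mean, single members differed at 5 weeks from 2 weeks by -0.69 (CDK4) to 0.95 cycles (Nfe2). Of the genes behind the sort, Kit was found in 99.4% of 5-week and 98.9% of 2-week cells, Cd48 in 1.72% and 1.09%, Ly6a (Sca1) in 72.99% and 91.3%, and Slamf1 (CD150) in 55.7% and 72.1%. None of the 15 markers of mature blood cells or 10 of endothelium and stroma listed for a check was among the assays, so admixture of those cells was not tested.

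Gfi1b was the common member of the pair, and it was detected in more cells at 5 weeks than at 2 weeks. A Gfi1b product was found in 69 of 91 cells (75.8%) and 61 of 83 cells (73.5%) on the 5-week plates, against 55 of 90 cells (61.1%) and 55 of 93 cells (59.1%) on the 2-week plates. Both 5-week plates therefore lay above both 2-week plates, by 12.4 to 16.7 percentage points. Pooled over plates the share was 74.7% at 5 weeks (exact Clopper-Pearson 95% interval 67.6 to 80.99%) and 60.1% at 2 weeks (52.6 to 67.3%), a difference of 14.6 points; the intervals cover counting error only. Such a position of the plates, both 5-week plates above both 2-week plates, was found for 42.7% of the 96 assays, and the median assay differed by 2.85 points. With the mean reference Ct of the cell as a covariate in a logistic fit, the Gfi1b difference was 3.16 points, and with the number of other assays detected it was 7.67 points.

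The level of Gfi1b in the cells that had it was also higher at 5 weeks. Its Ct ran from 11.9 over a median of 14.6 to 20.2 on 5-week plate 1 and from 11.8 over 15.0 to 19.9 on 5-week plate 2, against 12.8 over 15.8 to 22.7 on 2-week plate 1 and 12.9 over 15.8 to 18.5 on 2-week plate 2. The ranges of single cells overlapped widely, while the plate medians did not. The level, taken on a log2 scale as the reference Ct mean less the Gfi1b Ct, averaged -2.14 ± 1.44 at 5 weeks (SD, n = 130 cells) and -2.44 ± 1.31 at 2 weeks (n = 110 cells). The difference of 0.30 had plate comparisons from 0.18 to 0.43, which is smaller than the spread between cells. Both 5-week plates lay above both 2-week plates in level for 30% of the 80 assays that had 10 or more detecting cells per plate, Gfi1b among them. The median difference of these 80 assays was -0.13 with this centring, so Gfi1b stood 0.44 above it. Without centring the Gfi1b difference was 0.76 and the median of the assays 0.37, and with centring on Actb and Gapdh they were 0.75 and 0.25. The number of the 80 assays that were higher at 5 weeks was 49 without centring and 45 with Actb and Gapdh, against 24 with the 14 reference assays; 6, 9 and 35 were lower.

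Gfi1 was rare, and its share at 5 weeks was the lower one, though its plates overlapped under a stricter well filter. A Gfi1 product was found in 5 of 91 cells (5.49%) and 9 of 83 cells (10.8%) on the 5-week plates, against 12 of 90 cells (13.3%) and 13 of 93 cells (13.98%) on the 2-week plates. The 5-week plates lay below the 2-week plates, with plate comparisons from -8.48 to -2.49 points, and the 5-week plates differed from each other by more than the smaller of these. The plates overlapped, with a difference of -3.45 points, once wells had to show 50% of the assays. The difference was -2.82 points without 5-week plate 1 and -8.17 without 5-week plate 2. The pooled shares were 8.05% at 5 weeks (4.47 to 13.1%) and 13.7% at 2 weeks (9.04 to 19.5%), with intervals that overlap. Both 5-week plates lay below both 2-week plates for 7.29% of the 96 assays. Against -5.62 points without a covariate, the difference came to -0.63 given the reference Ct and to -4.37 given the number of other assays detected.

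**Figure D1:**
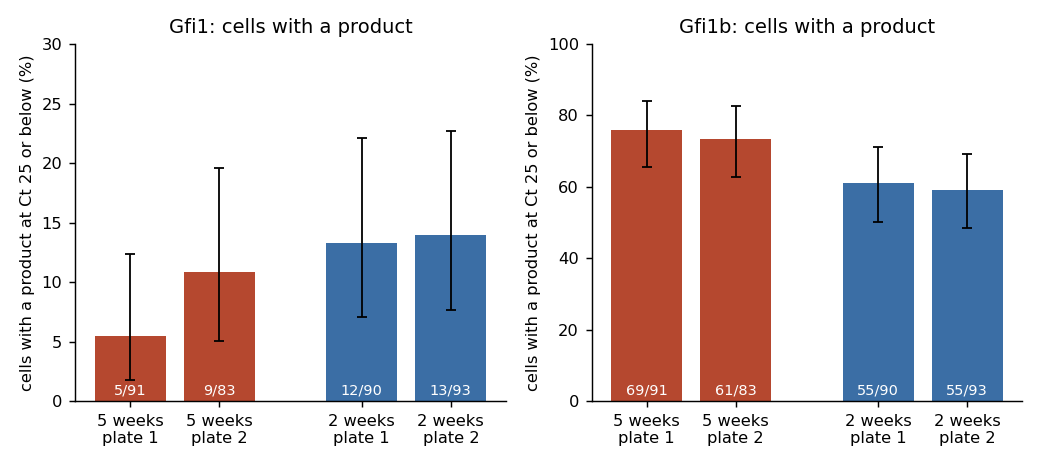
Share of cells with a Gfi1 product (left) and a Gfi1b product (right) on each plate, in percent, with 5-week plates in red and 2-week plates in blue. Bars give the share, whiskers the exact 95% interval and the figures in the bars the cells counted; the y axes differ. Gfi1b lies at 75.8 and 73.5% on the 5-week plates and at 61.1 and 59.1% on the 2-week plates, and Gfi1 at 5.49 and 10.8% and at 13.3 and 13.98%.

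Where Gfi1 was detected its product was early. The 5 Gfi1 cells of 5-week plate 1 had Ct values of 15.2, 15.2, 15.5, 15.6 and 15.6, and the 9 cells of 5-week plate 2 ran from 11.5 over a median of 14.5 to 17.8. The 12 cells of 2-week plate 1 ran from 12.9 over 15.7 to 16.4, and the 13 cells of 2-week plate 2 from 13.5 over 14.7 to 15.8. No Gfi1 product was later than Ct 18, and 6 of the 240 Gfi1b products were, so the counts hardly depended on where late products were drawn. The mean level relative to the reference assays was -2.06 ± 0.64 and -1.22 ± 1.82 on the 5-week plates, against -1.40 ± 1.20 and -0.75 ± 0.91 on the 2-week plates (SD over cells). These plates overlapped, and with fewer than 10 detecting cells on both 5-week plates no difference in level was formed. The levels of Gfi1 and Gfi1b come from different primer pairs and were not set against each other.

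Most of these stem cells had a Gfi1b product without Gfi1, and few had both. Over all 357 cells, 228 (63.9%) had Gfi1b only, 27 (7.56%) had Gfi1 only, 12 (3.36%) had both and 90 (25.2%) had neither. Gfi1b only made up 73.6 and 68.7% of the cells on the 5-week plates, against 60.0 and 53.8% on the 2-week plates. Gfi1 only made up 3.30 and 6.02%, against 12.2 and 8.602%. Neither was detected in 20.9 and 20.5%, against 26.7 and 32.3%. For these 3 classes the 5-week plates lay on 1 side of the 2-week plates. Cells with both numbered 2 and 4 on the 5-week plates, against 1 and 5 on the 2-week plates, or 3.45% of cells at 5 weeks (1.28 to 7.35%) and 3.28% at 2 weeks (1.21 to 6.999%). Their plates overlapped, so a difference in cells with both was not detectable with these numbers. Given the reference Ct, the differences were 1.05 points for Gfi1b only, -2.49 for Gfi1 only and -2.96 for neither, against 14.4, -5.78 and -8.82 points without it.

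**Figure D2:**
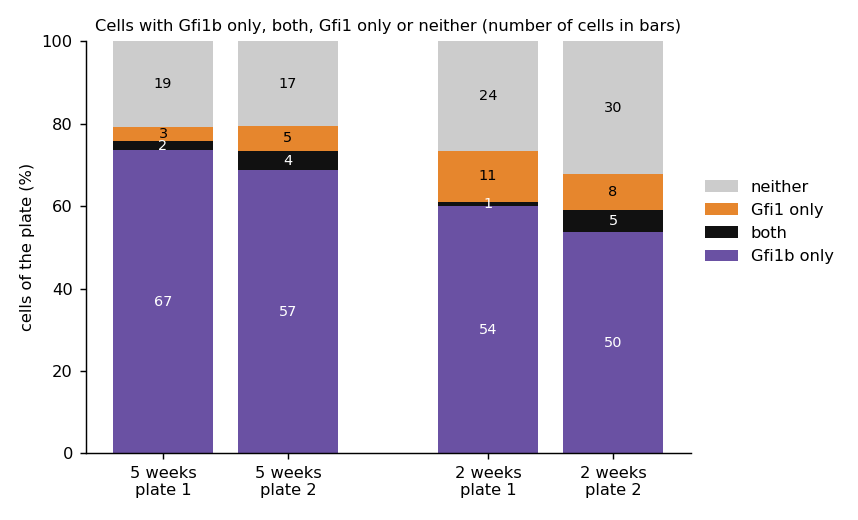
Cells of each plate that had Gfi1b only, both, Gfi1 only or neither, stacked as percent of the cells of the plate, with the number of cells printed in each segment. Cells with both are the thinnest segment on every plate, with 2, 4, 1 and 5 cells from left to right.

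Cells with a Gfi1 product had Gfi1b in a lower share than cells without Gfi1, on each of the 4 plates. On the 5-week plates Gfi1b was detected in 2 of 5 cells (40%) and 4 of 9 cells (44.4%) with Gfi1, against 67 of 86 (77.9%) and 57 of 74 (77.03%) without Gfi1. On the 2-week plates it was detected in 1 of 12 cells (8.33%) and 5 of 13 cells (38.5%) with Gfi1, against 54 of 78 (69.2%) and 50 of 80 (62.5%) without Gfi1. The difference was therefore below 0 on every plate, and its size ranged from -60.9 points on 2-week plate 1 to -24.04 points on 2-week plate 2. Pooled, Gfi1b was found in 42.9% of cells with Gfi1 at 5 weeks (17.7 to 71.1%) against 77.5% of those without (70.2 to 83.7%), and at 2 weeks in 24% (9.36 to 45.1%) against 65.8% (57.9 to 73.2%). On single plates the exact intervals of cells with and without Gfi1 overlapped, except on 2-week plate 1. Without 2-week plate 1 the 2-week difference of -41.8 points was -24.04, and without 2-week plate 2 it was -60.9.

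Read the other way, Gfi1 was found in 4.62% of the cells with Gfi1b at 5 weeks (1.71 to 9.78%) against 18.2% of those without Gfi1b (8.19 to 32.7%). At 2 weeks the shares were 5.45% (2.03 to 11.5%) against 26.03% (16.5 to 37.6%). By plate, the share was 2.90 and 6.56% in cells with Gfi1b against 13.6 and 22.7% without at 5 weeks, and 1.82 and 9.09% against 31.4 and 21.1% at 2 weeks. The pooled 2-week intervals do not overlap, but those of 2-week plate 2 alone do (3.02 to 19.95% and 9.55 to 37.3%), and so do those at 5 weeks. Without 2-week plate 1 the 2-week difference was -11.96 points, against -20.6 with both plates. Of the other 95 assays, 12.6% were detected in a lower share of the cells with Gfi1 than without on every plate, Gfi1b among them, and for cells with Gfi1b the figure was 2.11%, namely Gfi1 and Fgd5.

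**Figure D3:**
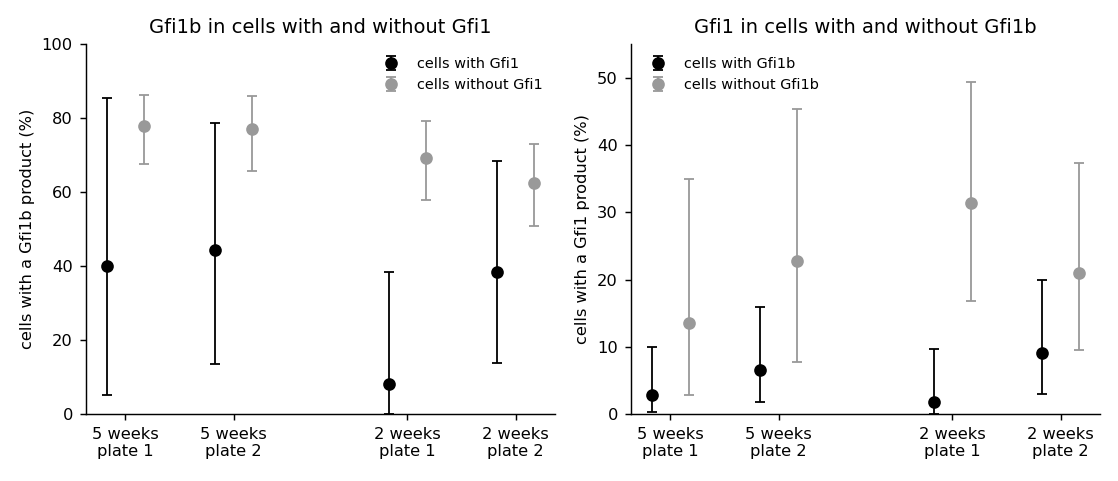
Left, share of cells with a Gfi1b product among cells with Gfi1 (black) and without Gfi1 (grey) on each plate, in percent; right, share with a Gfi1 product among cells with and without Gfi1b, on a shorter y axis. Points are shares and whiskers exact 95% intervals. The black point lies below the grey point on each of the 4 plates in both panels. The left intervals of 2-week plate 1 (8.33 and 69.2%) do not overlap, while those of each other plate do.

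The 12 cells with both products were not cells at the limit of detection. At 5 weeks their Gfi1 Ct ran from 14.2 over a median of 15.2 to 17.8 and their Gfi1b Ct from 14.2 over 15.7 to 17.4. At 2 weeks they ran from 14.6 over 14.8 to 15.7 for Gfi1 and from 15.6 over 15.9 to 18.5 for Gfi1b. Relative to the reference assays Gfi1b was at -2.80 ± 1.22 in the 6 cells with both at 5 weeks, against -2.11 ± 1.45 in the cells with Gfi1b only. At 2 weeks it was at -2.37 ± 1.13 in the 6 cells with both, against -2.45 ± 1.33 in the cells with Gfi1b only (SD over cells). Gfi1 was at -2.27 ± 1.68 in the cells with both at 5 weeks, against -0.96 ± 1.22 in the 8 cells with Gfi1 only, and at 2 weeks at -1.02 ± 0.57 against -1.08 ± 1.22 in 19 cells. The last of these pairs and both pairs for Gfi1b differed by less than the smaller SD, and Gfi1 at 5 weeks by less than the larger one.

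**Figure D4:**
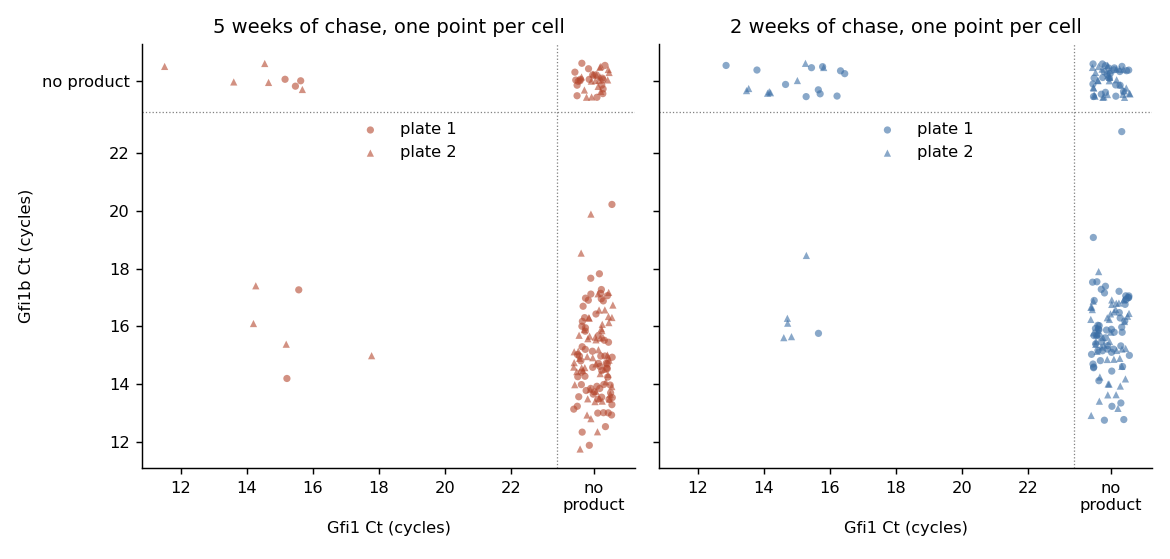
Ct of Gfi1b against Ct of Gfi1 in every cell at 5 weeks (left, red) and 2 weeks (right, blue), with circles for plate 1 and triangles for plate 2. Cells without a product are spread at random within the bands marked no product beyond the dotted lines. The 6 cells with both products in each panel lie between Ct 14.2 and 18.5, while most cells fall in the band at the right, with Gfi1b and no Gfi1.

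The reference Ct of the cells differed with both genes, in opposite directions. Cells with Gfi1 had a later mean reference Ct than cells without it on every plate, by 0.54 and 0.33 cycles on the 5-week plates and by 0.50 and 0.49 on the 2-week plates. Cells with Gfi1b had an earlier one, by -0.46 and -0.31 cycles and by -0.38 and -0.32. The reference Ct was 13.6 ± 0.35 in cells with Gfi1 only at 5 weeks and 13.9 ± 0.54 at 2 weeks, against 12.8 ± 0.61 and 13.3 ± 0.52 in cells with Gfi1b only. With the reference Ct of the cell as a covariate, the difference in Gfi1b between cells with and without Gfi1 was -25.6 points at 5 weeks and -30.2 points at 2 weeks. By plate it was -22.1 and -28.1 points at 5 weeks and -53.7 and -9.71 points at 2 weeks, so the 2-week value rests largely on plate 1. With the number of other assays detected it was -37.8 points at 5 weeks and -37.6 points at 2 weeks, and -18.8 on 2-week plate 2 alone. The difference kept its sign with either covariate on each plate. Fewer other assays were detected where the mean reference Ct was later, except for Gfi1 at 5 weeks. Cells with Gfi1b had 58.5 against 56.6 without it at 5 weeks and 54.9 against 52.3 at 2 weeks. Cells with Gfi1 had 51.5 against 54.2 without it at 2 weeks, but 59.8 against 57.8 at 5 weeks. By plate the 5-week values for Gfi1 were 58.8 against 58.9 on plate 1 and 60.3 against 56.6 on plate 2.

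The assays whose pattern over single cells was most like that of Gfi1 were mettl7a1, Ly6a, Fgd5, Hoxb5 and Hk3, ranked by the lowest Spearman rho over the 4 plates (for the least like, by the highest) among 49 assays, namely those detected in 10 to 95% of the cells of every plate and the paralog. The correlations were weak, and the cells of a plate share chip and run. Hk3 encodes a hexokinase and mettl7a1 (Mettl7a1) a methyltransferase-like protein; mettl7a1 was detected in 39 of 39 cells with Gfi1 and in 77.04% of the 318 cells without, with rho from 0.14 to 0.34 and Pearson's r from 0.14 to 0.32. Ly6a, the gene of the stem cell antigen Sca1, was detected in 97.4% against 80.5%. Fgd5, a guanine nucleotide exchange factor gene that marks HSCs in mice, was detected in 69.2% against 43.7%, with 100 and 88.9% of Gfi1 cells on the 5-week plates and 58.3 and 53.8% on the 2-week plates. Hoxb5, a homeobox gene used as a marker of long-term HSCs in mice, was detected in 41.03% against 22.6%, and Hk3 in 41.03% against 27.99%. With plate and reference Ct as covariates, a fit added after the values were seen, the differences were 23.1 points for mettl7a1, 15.3 for Ly6a, 27.02 for Fgd5, 21.04 for Hoxb5 and 8.98 for Hk3.

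The assays least like Gfi1 were Gfi1b itself, then Myc and CDK2. Gfi1b had rho of -0.19 and -0.27 on the 5-week plates and -0.37 and -0.20 on the 2-week plates (r from -0.41 to -0.20). Myc, the growth-promoting transcription factor, was detected in 53.8% of the cells with Gfi1 against 84.9% of those without, and lower on each plate; with plate and reference Ct as covariates the difference was -22.9 points. CDK2, a kinase of S phase entry, was detected in 53.8% against 65.1%, a difference that was 2.58 points with those covariates. The rho was above 0 on every plate for 12.2% of the 49 assays and below 0 on every plate for 26.5%. Actb, outside the ranking because every cell had it, had rho from -0.37 to -0.20 with Gfi1, a range like that of Gfi1b.

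Gfi1b was most like Itga2b, Cdkn2d, CDK6, Epor and GMNN. Itga2b, the gene of CD41, was detected in 51.7% of the 240 cells with Gfi1b against 32.5% of the cells without, with rho from 0.16 to 0.27 (r from 0.10 to 0.26). Cdkn2d, which encodes the INK4 inhibitor p19, was detected in 76.7% against 60.7%, and CDK6, a G1 kinase that such inhibitors bind, in 89.6% against 78.6%. Epor, the erythropoietin receptor gene, was detected in 30.4% against 15.4%, and GMNN, whose product geminin restrains replication licensing, in 42.5% against 32.5%. With plate and reference Ct as covariates the differences were 5.13 points for Itga2b, 10.8 for Cdkn2d, 6.67 for CDK6, 5.00 for Epor and 3.28 for GMNN, each below the unadjusted one. The least like were Gfi1, Ly6a (79.6% against 88.03%) and the homeobox gene Nkx2-3 (assay Nkx2.3, 56.7% against 58.1%), with rho as near to 0 as -0.01 on 1 plate for the last 2. The rho was above 0 on every plate for 34.7% of the 49 assays and below 0 on every plate for 6.12%, and Actb had rho from 0.23 to 0.40.

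**Figure D5:**
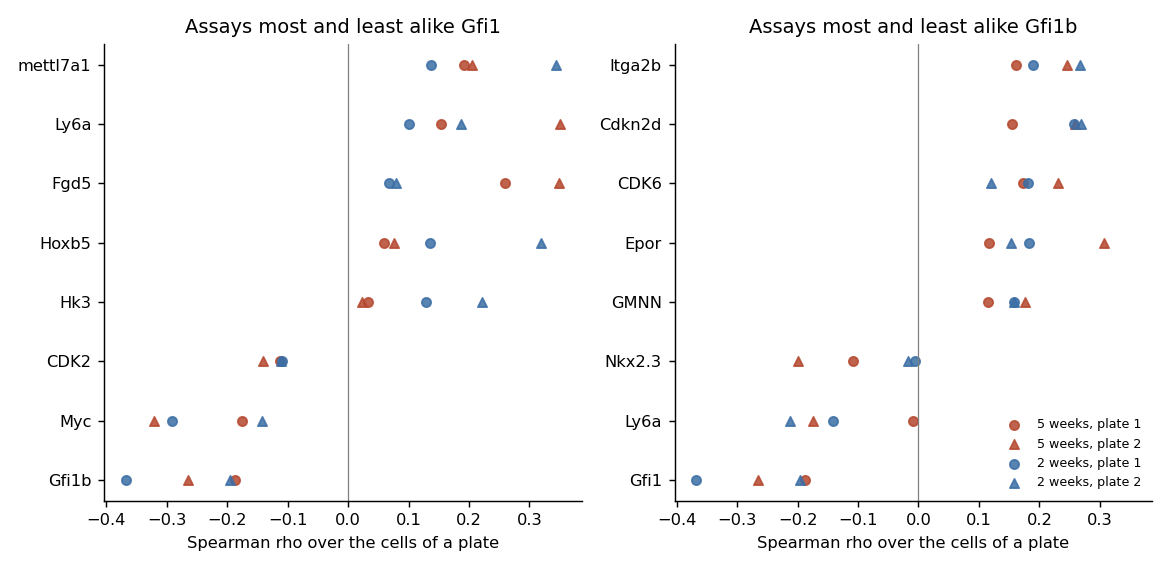
Spearman rho between the Ct of Gfi1 (left) or Gfi1b (right) and that of the assays named at the left of each panel, plate by plate, undetected reactions being set to Ct 25. Red marks are 5-week plates and blue marks 2-week plates, circles plate 1 and triangles plate 2. The paralog lies between -0.37 and -0.19 in both panels, below 0 on all 4 plates.

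Genes of the erythroid and megakaryocyte list, the lineages in which Gfi1b acts, went with Gfi1b in part. Of the 8 measured members 4 (Gata1, Epor, Itga2b and vwf) were detected in a higher share of the cells with Gfi1b on every plate and 0 in a lower share, where 17.9% of the 95 other assays were higher on every plate. The median of the members' differences was 5.20 points, against 1.21 points over all assays. Gata1, the erythroid and megakaryocyte transcription factor, was detected in 18.8% of cells with Gfi1b against 9.40% of those without, and vwf, the gene of von Willebrand factor, in 45.8% against 35.9%. With plate and reference Ct as covariates their differences were 2.45 and 2.32 points. In cells with Gfi1, Gata1 was detected in 1 of 39 cells, against 55 of 318 cells without Gfi1, and Itga2b in 12.8% against 49.4%; these 2 of the 8 members were lower on every plate, as were 12.6% of the 95 other assays, and with the covariates their differences were -11.4 and -24.1 points. Other members did not follow. With Gfi1, vwf was detected in 46.2% against 42.1%, a difference of 14.2 points with the covariates. Epor was detected in 15.4% against 26.7%, which became 2.84 points with the covariates. The median of the 8 members with Gfi1 was -1.93 points, against 0.0 over all assays. Between chase times 6 of the 8 members were higher at 5 weeks with plates apart and 0 lower, where 42.7% of all assays were higher and 7.29% lower.

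The SCL complex and related stem cell factors, several of which are known to bind at Gfi1b in mouse blood progenitors, were detected in most cells, with or without either repressor. Of the 8 members of the SCL complex list (Tal1, Lyl1, Lmo2, Ldb1, Gata2, Runx1, Erg and Fli1), 0 were higher or lower on every plate with Gfi1b, and 1 (Fli1) was higher on every plate with Gfi1, a share of the list near the 11.6% of other assays that were. The medians were 1.16 points with Gfi1b and 0.16 with Gfi1. Most of these genes were detected in nearly every cell, Lmo2 in 100%, so their shares had little room to differ on every plate. These counts therefore cannot decide whether the factors went with either repressor. Over the plates, rho with Gfi1b was 0.23 to 0.36 for Fli1, 0.13 to 0.40 for Gata2 and -0.13 to 0.13 for Erg. For Actb it was 0.23 to 0.40. Tal1, the bHLH factor at the core of the complex, gave a product in 97.7% of 5-week cells and 81.97% of 2-week cells. Of the 8 members 5 were higher and 1 (Erg) lower at 5 weeks with plates apart. Over all assays 42.7% were higher and 7.29% lower. Of the corepressor list 2 of 8 genes were measured, the ETO family members Runx1t1 and Cbfa2t3, and 0 of them lay on 1 side on every plate with either repressor. The SNAG domain partner LSD1 was not measured.

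Genes reported as repressed by Gfi1 or Gfi1b were not uniformly low where the repressors were found. Of the 6 measured, 2 (Cdkn1a and Csf1r) were detected in a lower share of the cells with Gfi1 on every plate and 0 in a higher share, where 12.6% of the 95 other assays were lower and 11.6% higher. Csf1r, the receptor of macrophage colony-stimulating factor, was found in 0 of 39 cells with Gfi1, against 31 of 318 cells without (9.75%). A rough upper limit for 0 found, taken as 3 counts in 39 cells, is 7.69%. It is not the exact interval used for the other shares. Cdkn1a was found in 2 of 39 against 25 of 318, and its difference was -1.32 points with plate and reference Ct as covariates. Both genes were so rare at 5 weeks that none among the 5 and 9 Gfi1 cells of those plates carries little information. Cells with and without Gfi1b differed on every plate for 0 of the 6. The medians were -4.88 points with Gfi1 and 1.25 with Gfi1b. Between chase times Cdkn1a was found in 2.87% of 5-week cells against 12.02% of 2-week cells, and Csf1r in 2.30% against 14.8%, with plates apart.

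In the cell cycle inhibitor and p53 list of 12 genes, Cdkn2c, Cdkn2d and Mdm2 were higher on every plate with Gfi1b, and Cdkn1a, Cdkn2c and Cdkn2d lower on every plate with Gfi1, where 17.9% of the other assays were higher with Gfi1b and 12.6% lower with Gfi1. Cdkn2c, which encodes the INK4 inhibitor p18, was detected in 12.8% of cells with Gfi1 against 40.3% of those without, and in 41.7% of cells with Gfi1b against 28.2%. With plate and reference Ct as covariates its differences were -19.5 points with Gfi1 and 4.03 with Gfi1b. Cdkn1c, which encodes p57, a quiescence gene of HSCs, was the member that was higher on every plate with Gfi1, in 64.1% against 52.8%. Of the other assays 11.6% were higher on every plate with Gfi1. The medians of the list were 2.38 points with Gfi1b and -1.31 with Gfi1. With the same shares of other assays as background, among 6 granulocyte and monocyte genes Cebpe and Csf2rb were higher on every plate with Gfi1b, Csf2rb also with Gfi1, and Csf1r was lower with Gfi1, with medians of 3.75 and -3.33 points. Among 7 lymphoid genes Dntt was higher with Gfi1b on every plate, and was too rare (7.84% of all cells) for its share in cells with Gfi1 to be read. Flt3 was higher with Gfi1, in 53.8% against 46.2%; the medians were 0.0 and -1.25 points.

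Ordered by the share of all cells that had a product, Gfi1 was the 12th lowest of the 96 assays, at 10.9% (7.88 to 14.6%), and Gfi1b the 53rd, at 67.2% (62.1 to 72.1%). The neighbours of Gfi1 were Csf1r (8.68%) and Dntt (7.84%) below and Ccne1 (11.8%) and Mitf (12.3%) above. Those of Gfi1b were Cebpa (65.3%) and Slamf1 (64.1%) below and Cd34 (68.6%) and Cdkn1b (69.2%) above. All of these lie within the exact interval of the member they neighbour except Dntt, so their order is not resolved by these cell numbers.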

How the data were processed

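Single sorted cells were lysed in plate wells, reverse transcribed, pre-amplified in multiplex with 96 assays and read by EvaGreen quantitative PCR on microfluidic dynamic arrays, per the labels' protocols. The values as the authors deposited them are threshold cycles that were not normalized, with 999 for a reaction without product. The sources used here do not name the software, the thresholds or the rule for failed reactions. EvaGreen reports any double-stranded product. Wells without a cell were not analysed here. Of 34272 reactions 13989 had no product, and Ct ran from 8.56 to 27.6.

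A product counted at Ct 25 or below, and wells needed 20% of assays detected (0 removed; 0 cells were identical). Plates were called apart when both 5-week plates lay on 1 side of both 2-week plates. Level was the mean Ct of the 14 reference assays minus that of the gene, in log2 units. For correlations undetected reactions were set to Ct 25, uncentred. Covariates entered logistic fits, read as mean predicted differences over all cells. Correlations and shares across cells carry no p, since cells of a plate share their source. The named assays were, per member, the 5 most and 3 least alike, the 2 neighbours in share on each side, up to 4 per list by their difference with Gfi1b, and the sort genes; other list members named were chosen after their values were seen. Members and lists were chosen with earlier results of these data known. Of the 96 assay names 82 matched RefSeq symbols (GRCm38.p6) as printed and 12 in another case. Not every list member is reported here by name. Share differences, co-detection of the pair and the fit with 1 covariate were checked on simulated plates, where the assays shared no common cell input. The reference centring, correlations, rankings, lists, the fit with plate and reference Ct and the motif search were not checked in this way. Python 3.11.15, pandas 2.3.3, numpy 2.4.6, scipy 1.17.1 and matplotlib 3.10.9 were used.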

Additional observations from a re-analysis of the deposited data

How the results depend on the processing

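All but 10 of the recomputed values moved by less than their counting interval (shares), the spread between plates (level) or 1.5 times (counts of assays), and 0 changed sign among results with plates on 1 side. Part of this was fixed in advance. The latest product of the pair was at Ct 22.7, so Ct 23 and any product could not change its values. Leaving out 1 plate and taking the other plate of that time alone gave the same co-detection values. Wide intervals also hid shifts: the Gfi1 share difference of -0.63 points counted as unmoved within -12.2 to 0.94. The difference in Gfi1b between cells with and without Gfi1 ranged from -37.9 to -25.6 points at 5 weeks and from -60.9 to -24.04 at 2 weeks over Ct limits of 18, 20 and 23, any product, other well filters, equal plate weights, both covariates over both plates, and each plate alone without a covariate; on 2-week plate 1 alone it was -60.9, and on 2-week plate 2 with the reference Ct -9.71. The difference between chase times in the Gfi1b share was 3.16 points with the reference Ct as a covariate, and that in the Gfi1 share -0.63; the Gfi1 plates overlapped at -3.45 points when wells needed 50% of the assays. The Gfi1b level difference was 0.76 without centring, 0.75 with Actb and Gapdh and 1.42 over all cells with undetected reactions at the limit. Leaving out plates set 13 to 17 assays lower at 5 weeks, where fewer plates have to be apart, against 7 with all plates. The cause of the other changes was not tested. Few cells had Gfi1 (14 and 25), which limits every value conditioned on it. No level difference of Gfi1 was formed, and equal plate weights do not apply to counts of assays. No paired analysis was possible because plate numbers are shared by name only and cells carry no pairing.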

Other observations

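Among all 1225 pairs of the 50 assays ranked (49 detected in 10 to 95% of the cells of every plate, and Gfi1), Gfi1 and Gfi1b had the third most negative rho on the weakest plate, -0.19, after Flt3 with vwf at -0.27 and CDK6 with Ly6a at -0.25. This order was read after the values were seen, and it leaves out assays detected in more than 95% of the cells of a plate. Among those left out, Actb had a rho with Gfi1 of -0.20 on its weakest plate, slightly more negative than that of Gfi1b. Cells with neither repressor made up 20.7% of cells at 5 weeks and 29.5% at 2 weeks, and their mean reference Ct was 13.2 ± 0.74 and 13.6 ± 0.41. Cells with both had other assays detected in numbers of 61.8 ± 6.21 at 5 weeks and 52.7 ± 6.44 at 2 weeks, against 56.2 ± 5.05 and 52.7 ± 5.13 in cells with neither. The lineage-primed genes vwf and Flt3 were each detected in more of the cells with Gfi1 than without, vwf in 46.2% against 42.1% and Flt3 in 53.8% against 46.2%, with vwf lower on 1 of the 4 plates. These shares rest on 18 and 21 of 39 cells with Gfi1, and no interval was formed. The mean differences over the 4 plates were 7.52 and 8.91 points with Gfi1, and 7.44 and 4.87 with Gfi1b. Of the 95 other assays 11.6% were higher with Gfi1 on every plate.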
